A study of Mus musculus with 8 samples.

Results

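A group of 116 genes rose at least 2-fold in mouse embryonic stem cells during 8 h and 10 h of 4-hydroxytamoxifen (4OHT). After 8 h of 4OHT and 2 h of the MEK inhibitor PD0325901 they stood at least 2-fold below separate 10 h cultures. That difference from 10 h is called the fall. They were chosen from 14489 named genes by these same values, so the rise, the fall and the level that remained are given as descriptions with no test. Each value is the log2 signal of 1 probe minus the 75th percentile of its array, and a difference of 1 is 2-fold. A gene was a member where, within each replicate number, it stood at least 1 above untreated cells at 8 h and at 10 h and at least 1 below its 10 h level after the inhibitor. Its mean level after the inhibitor also had to lie above -0.5 relative to untreated cells, and its probe had to be well above background on both 8 h and both 10 h arrays. The members were 0.801% of the named genes and 110 of them are annotated as protein-coding and 6 as long non-coding RNAs.

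The study hybridised 8 single-colour Agilent arrays, 2 in each of 4 groups, to ask which transcripts depend on the kinase ERK. All cells grew in stem cell medium containing LIF and PD173074, which blocks FGF receptors, at 250 nM, so the untreated cells also carried that drug. Besides untreated cultures there were cultures with 4OHT at 250 nM for 8 h, for 10 h, or for 8 h followed by PD0325901 at 1 µM for 2 h. The labels name no protein that 4OHT acts on, no genotype and no cell line, and do not say whether 4OHT stayed on during the inhibitor. The design text calls the replicates biological, but nothing says how the cultures were kept apart, so the p-values below reflect only how far these samples spread, and that spread may be technical.

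The kinase MEK phosphorylates and activates ERK, which in turn phosphorylates transcription factors of the ETS family and others that switch on immediate early genes. Many of those genes encode short-lived transcripts, and several of their proteins, such as the dual-specificity phosphatases and Sprouty proteins, feed back to dampen the pathway. In mouse embryonic stem cells FGF signalling through ERK is known for promoting the exit from naive pluripotency, which is why inhibitors of this pathway are used to hold the cells there.

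Between 30218 and 37789 of 59305 spots were well above background on an array, with at least 36889 on each array of replicate 1 and at most 31433 on each of replicate 2, and no spot was saturated. All 10 stem cell markers, Pou5f1 and Sox2 among them, were well above background on all 8 arrays, with a summed level between 9.72 and 10.03 in which Dppa5a was the highest. Single markers differed: Nanog stood at 4.78 and 4.83 untreated, 2.31 and 2.12 at 8 h, 1.93 and 1.48 at 10 h, and 3.54 and 3.19 after PD0325901. Of 12 fibroblast markers 6 were measurable, and their summed level stood at 1.32 to 1.88 in untreated cells and at 4.15 to 5.36 across the 4OHT 8 h and 10 h arrays. Thy1 carried that difference: without it the sum lay between -0.77 and -0.21 in untreated cells and between -1.39 and -0.97 at 8 h and 10 h. The trophoblast list, which holds the member Cdx2, was measurable for 9 of 10 genes and its sum stood at 4.25 to 4.50 in untreated cells, 5.67 to 6.01 at 10 h and 5.71 to 5.74 after PD0325901. Without Krt18, its highest gene, the sum stood at 3.52 to 3.65, 3.59 to 4.07 and 4.57 to 4.62. All 13 primitive endoderm markers were measurable. Their summed level was 8.12 to 8.36 in untreated cells, 8.34 to 8.63 at 8 h, 8.44 to 8.67 at 10 h and 8.34 to 8.77 after PD0325901. Without Sparc, the highest gene, it was 5.93 to 6.55, 5.99 to 6.67, 6.06 to 6.64 and 6.25 to 6.99. From 10 h to the inhibitor single markers moved either way, Gata6 down and Foxa2 and Lama1 up. Each of the 13 markers stood higher on untreated replicate 1 than on untreated replicate 2, as for Gata6 (-0.30 and -2.26) and Lama1 (5.94 and 5.08). The part of these other cell types in the results was not tested.

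For the 86 members well above background on both untreated arrays the mean rise at 10 h ran from 1.03 to 6.53 (Cdx2), with a median of 2.36. For 17 others neither untreated array was well above background, so their rise is known only as a lower bound. Over all 116 members the median rise was 2.66, or 2.42 with those 17 at their bound. The fall from the separate 10 h cultures to the PD0325901 group ran from 1.02 to 4.09, with a median of 1.59, which is 3.01-fold. Over all 14489 named genes the medians were -0.04 for the rise at 10 h and -0.03 for the inhibitor, and 4.68%, 5.38% and 1.37% of them met the bound on the rise at 8 h, the rise at 10 h and the fall. Fewer cells expressing a gene and less RNA per cell cannot be told apart in these bulk samples. The rule required the fall in both replicate numbers, and the 2 values lay less than 0.5 apart for 103 members. Relative to 8 h, when the inhibitor was added, the median difference was -1.47, against -0.02 for all named genes. The smallest mean difference was -0.07, and 115 members lay below their 8 h level in both replicate numbers. That largely follows from the bound on the fall from 10 h, so nothing is read from it. The heat map of all members shows that most genes returned only part of the way to the untreated level.

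**Figure D1:**
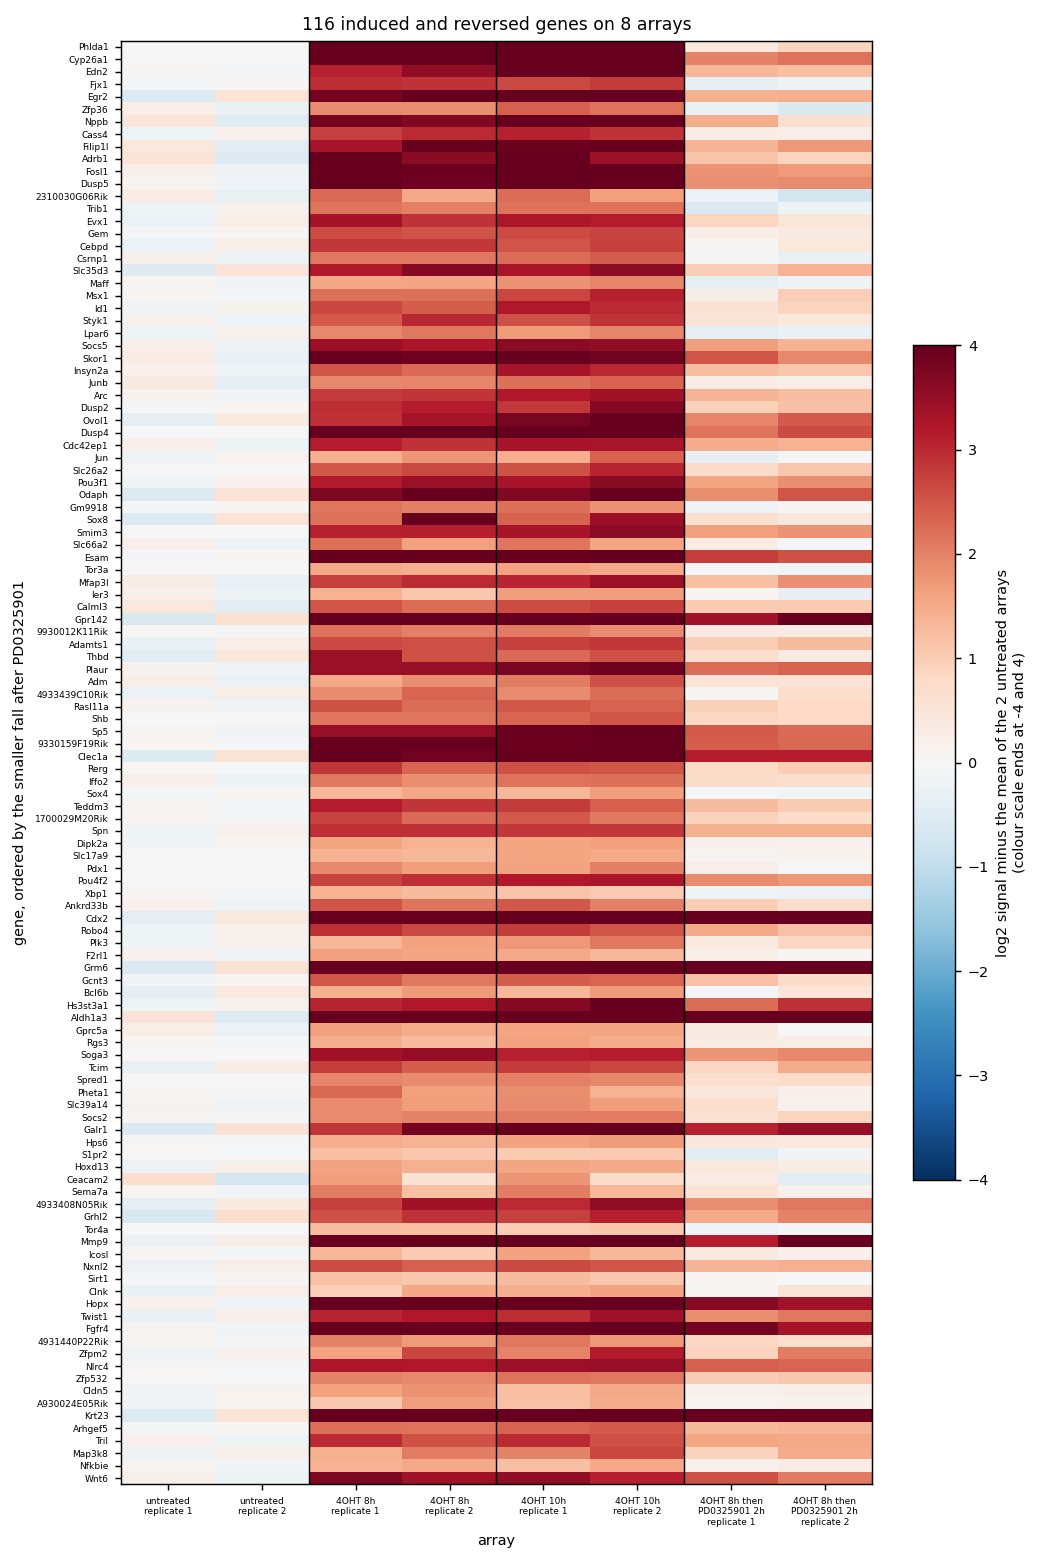
Each line of the heat map is 1 of the 116 members and each column 1 of the 8 arrays, with colour giving the log2 signal minus the mean of the 2 untreated arrays and genes ordered by the smaller of their 2 falls. Phlda1 with the largest fall (4.09) is at the top, and the lower part of the map still holds genes such as Krt23 that stay dark red after PD0325901.

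The rise and the fall were unequal for most members. For the 86 members measured in untreated cells the mean level after PD0325901 ranged from -0.48 to 5.14 relative to those cells, with a median of 0.70. It lay within 0.5 of the untreated level for 38 of them and at 2 or more above it for 11. Over all 116 members, including those with a dim untreated probe, it lay within 0.5 for 42, between 0.5 and 1 for 19, between 1 and 2 for 33, and at 2 or more for 22. Expressed as the share of the 10 h rise that was lost, the 86 members well above background on all 8 arrays spanned 21.3% to 125%, with a median of 73.6%. At the upper end stood 2310030G06Rik at 125%, the sphingosine-1-phosphate receptor S1pr2 at 124%, Zfp36 and Xbp1 at 119% each, and Trib1 at 118%. At the lower end stood the homeobox gene Cdx2 at 21.3%, Hopx at 24.2%, the FGF receptor Fgfr4 at 25.1%, the ligand Wnt6 at 30.8% and the inflammasome gene Nlrc4 at 31.8%. The 96 members above the untreated level in both replicate numbers compare with 13 below it in both, and the bound at -0.5 kept genes far below that level out. The bounds on the rise also favour genes with a low untreated level, so nothing is read from these counts.

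**Figure D2:**
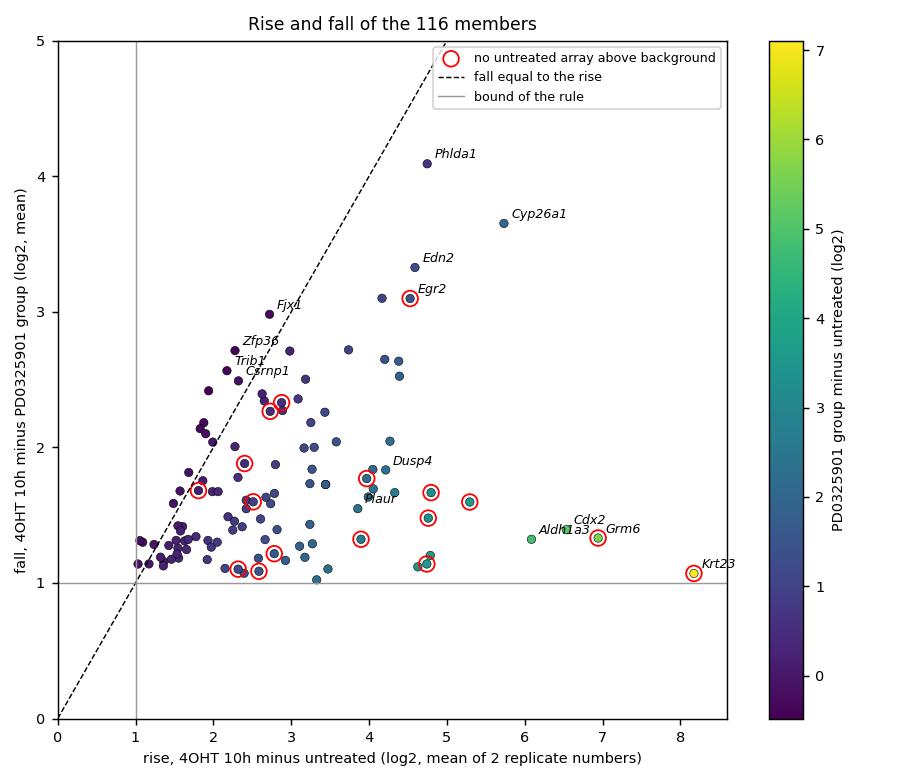
Each point is 1 of the 116 members, with the mean rise at 4OHT 10 h on the horizontal axis and the mean fall after PD0325901 on the vertical axis, both in log2, coloured by the level left above untreated cells. The dashed line marks a fall as large as the rise and the grey lines the bounds at 1: Fjx1, Zfp36, Trib1 and Csrnp1 lie above the dashed line, while Cdx2 rose by 6.53 and fell by 1.39. Red rings mark the 17 members with no untreated array well above background, Grm6 and Krt23 among them, whose horizontal position is a measured difference and not a known rise.

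Promoter sequences of RefSeq (GRCm38.p6), 250 bases before to 50 after an annotated start, were given for 76 members in 94 windows, and 40 members had none. The CArG box, the motif bound by serum response factor, which works with ETS factors downstream of ERK at many immediate early genes, was searched by name on both strands, and each motif was counted whether or not it overlapped another. It lay in windows of 5 of the 76 members (6.58%), Dusp5, Egr2, Filip1l, Hopx and Zfp36, against 1.69% of 11542 tested genes with a window and 1.63% of all 32851 windows. Among the induced genes it lay in 2 of 343 that did not fall by 1 in both replicate numbers (0.583%). It lay in 1 of 20 that fell below the lower bound (5.0%). These shares are descriptions, and the motifs were chosen after the members were known. The boxes are printed because they are the sequence feature in which these 5 members are alike. Each box is in capitals, 5′ to 3′ on the gene's strand. Dusp5 holds a pair in tandem and Egr2 has 1 box before each of a pair of annotated starts. For both Egr2 stretches and that of Filip1l, another annotated start of the gene lies upstream of the stretch's end.
Dusp5, chr19:53529038-53529107, plus strand: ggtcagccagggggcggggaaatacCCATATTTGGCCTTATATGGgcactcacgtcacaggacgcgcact
Egr2, chr10:67537484-67537513, plus strand: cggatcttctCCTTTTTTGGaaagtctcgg
Egr2, chr10:67537787-67537816, plus strand: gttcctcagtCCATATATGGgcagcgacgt
Filip1l, chr16:57549170-57549199, plus strand: atgccgcgcgCCTTATAAGGctgagcggtg
Hopx, chr5:77115172-77115231, minus strand: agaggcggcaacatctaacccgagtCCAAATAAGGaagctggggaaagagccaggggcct
Zfp36, chr7:28379252-28379311, minus strand: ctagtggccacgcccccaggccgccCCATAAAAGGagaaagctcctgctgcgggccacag

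The boxes end 49 to 74 bases before the start they belong to. Other motifs gave shares on either side of the background. The ETS motif CCGGAAG lay in windows of 3 of 76 members (3.95%) and of 17.8% of tested genes. The EGR motif GCGGGGGCG lay in 8 (10.5%) against 5.95%, the AP-1 motif TGANTCA in 5 (6.58%) against 6.46%, and the cAMP response element TGACGTCA in 4 (5.26%) against 3.39%. Of the 343 induced genes short of the fall bound, 7.29% held the ETS, 9.33% the EGR, 12.2% the AP-1 and 0.875% the cAMP response motif. The median G and C content was 59.8% in member windows and 60.0% in those of tested genes. No match says only that these letters are not in these 300 bases.

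Negative regulators of signalling and of RNA stability made up 12 members, with a median rise of 2.23 and a median fall of 1.94, and 5 of them ended within 0.5 of untreated cells. Phlda1, a pleckstrin-homology protein that restrains growth factor signalling, had the largest mean fall of all members. It stood at 1.23 and 1.28 in untreated cells, 5.39 and 5.77 at 8 h, 5.74 and 6.25 at 10 h, and 1.67 and 2.15 after PD0325901. Both inhibited arrays lay below every 4OHT array and above both untreated arrays, and the 10 h level fell by 17.1-fold after a 26.9-fold rise.

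The dual-specificity phosphatases Dusp2, Dusp4 and Dusp5, nuclear enzymes that remove phosphate from MAP kinases, all kept a remainder of 1.07 or more. Dusp4 stood at -1.36 and -1.38 in untreated cells, 2.62 and 2.92 at 8 h, 2.64 and 3.05 at 10 h, and 0.80 and 1.22 after the inhibitor. Its level after the inhibitor was thus between the untreated and the 4OHT arrays with no overlap, 2.38 above untreated cells. Dusp5, with the tandem CArG boxes, stood at -4.59 and -4.78 untreated, where 1 of 2 arrays was well above background, -0.71 and -0.81 at 8 h, -0.46 and -0.13 at 10 h, and -2.86 and -2.79 after the inhibitor. Dusp2 rose by 3.25 and fell by 2.18.

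Zfp36, which encodes tristetraprolin and promotes decay of AU-rich transcripts, ended below its starting level. It stood at -3.06 and -3.56 in untreated cells, -1.43 and -1.47 at 8 h, -0.92 and -1.14 at 10 h, and -3.60 and -3.89 after PD0325901. Trib1, a pseudokinase that directs proteins to degradation, stood at 0.69 and 1.04, then 2.99 and 2.89, then 3.03 and 3.04, and then 0.28 and 0.66. For both genes the inhibited arrays were the lowest of their replicate number. The Sprouty-related inhibitor Spred1 rose by 1.97 and fell by 1.26, and the early response gene Ier3 rose by 1.68 and fell by 1.82. The cytokine signalling suppressors Socs2 and Socs5 fell by 1.30 and 2.04, the G protein regulator Rgs3 by 1.26, and the NF-κB inhibitor Nfkbie by 1.13.

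Immediate early transcription factors, grouped here with the unfolded protein response factor Xbp1, made up 8 members, with a median fall of 2.29. Their median remainder was 0.03 above untreated cells, and 6 of the 8, Xbp1 included, ended within 0.5 of them. Xbp1 had the smallest rise at 10 h and the smallest fall of the 8. Fosl1, the FRA1 subunit of AP-1, stood at -3.45 and -3.82 untreated, 0.32 and 0.29 at 8 h, 0.61 and 0.89 at 10 h, and -1.84 and -1.94 after the inhibitor. It kept a remainder of 1.75, and its 4 groups did not overlap. Junb stood at -1.84 and -2.53 untreated, -0.25 and -0.24 at 8 h, 0.01 and 0.19 at 10 h, and -1.88 and -1.94 after the inhibitor, so its inhibited arrays lay between its untreated arrays. Jun rose by 1.90 and fell by 2.10, and the small MAF protein Maff rose by 1.88 and fell by 2.18.

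Egr2, a zinc finger factor, was not well above background on either untreated or either inhibited array. Its signal was -7.36 and -6.26 untreated, -2.99 and -1.42 at 8 h, -2.56 and -2.0 at 10 h, and -5.39 and -5.37 after PD0325901. Its measured rise of 4.53 is therefore a bound of at least 5.78-fold and its fall of 3.10 a bound of at least 6.32-fold, taken against the lowest detectable signal of each array, or the probe's own signal if greater. Csrnp1, a nuclear protein of the immediate early class, stood at 3.07 and 2.69 untreated, 4.98 on both 8 h arrays, 5.12 and 5.30 at 10 h, and 2.84 and 2.59 after the inhibitor. Its inhibited and untreated arrays overlapped. Cebpd rose by 2.63 and fell by 2.40, and Xbp1, a factor of the unfolded protein response, rose by 1.09 and fell by 1.30.

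**Figure D3:**
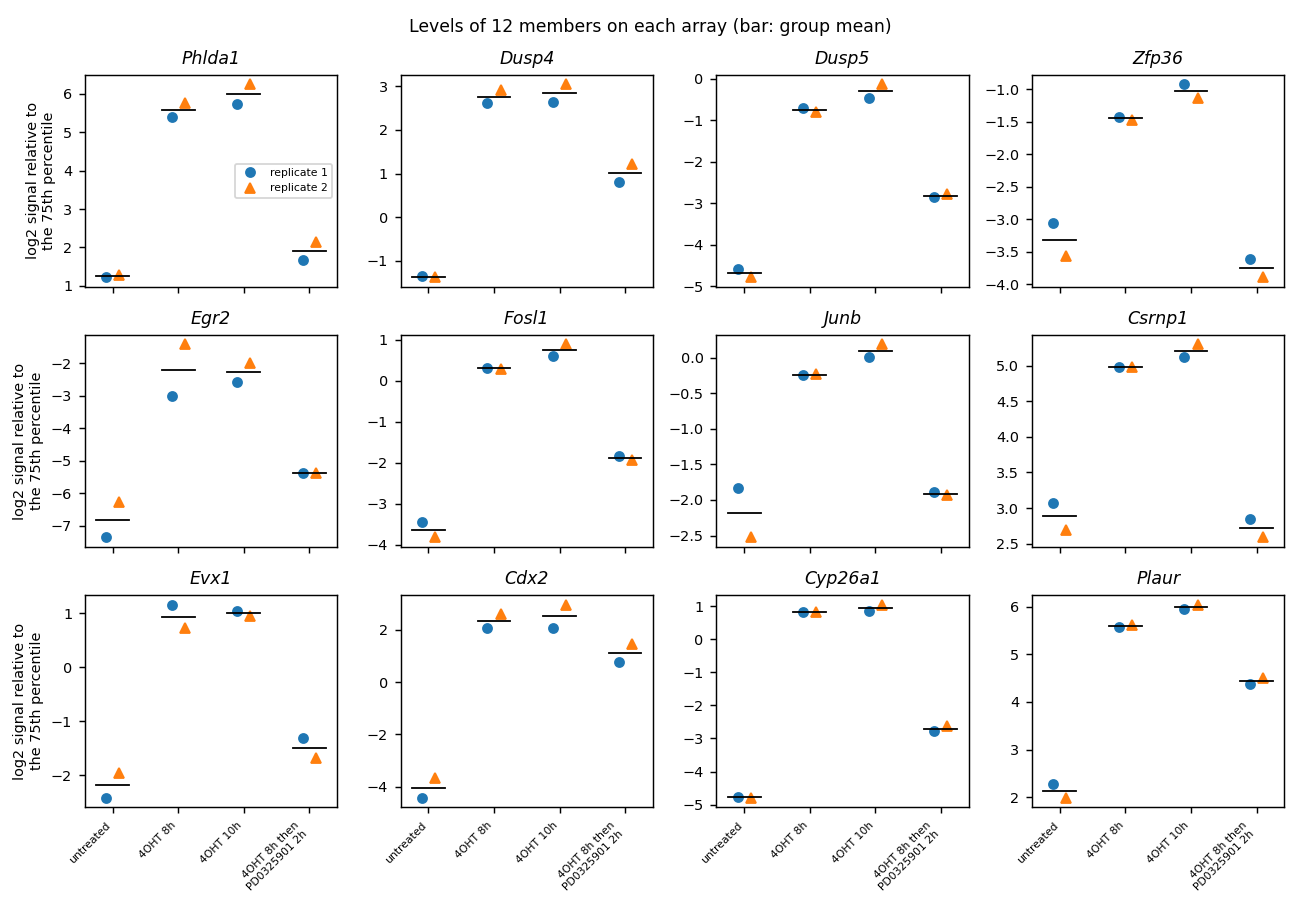
Points give the level of 12 members on each array, as log2 signal relative to the 75th percentile of the array (circles replicate 1, triangles replicate 2, bars the mean of 2), with a separate vertical scale for each gene. Zfp36 and Csrnp1 end at or below their untreated level, whereas Dusp4, Cdx2 and Plaur end 2.38, 5.14 and 2.31 above it.

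Kinases, small GTPases and adaptors made up 11 members, with falls between 1.07 and 2.71. The small GTPase Gem stood at -3.39 and -3.22 untreated, -0.69 and -0.79 at 8 h, -0.71 and -0.59 at 10 h, and -3.04 and -2.94 after the inhibitor, near its untreated level. The adaptor Cass4 rose by 2.98 and fell by 2.71, and 1 of its 2 untreated arrays was well above background. The polo-like kinase Plk3 rose by 1.93 and fell by 1.31. Map3k8, a kinase that activates MEK, was not detected above background on either untreated array, rose by at least 4.13-fold and fell by 1.10.

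The 7 secreted peptides and ligands had a median fall of 1.78 and included 3 of the 12 largest falls. The endothelin Edn2, a vasoactive peptide, stood at -4.30 and -4.39 untreated with 1 of 2 arrays well above background, -1.24 and -0.81 at 8 h, 0.07 and 0.42 at 10 h, and -3.01 and -3.16 after PD0325901. Its 10 h arrays were its highest, and the inhibited group lay 10.0-fold below them. Relative to 8 h, when PD0325901 was added, the inhibited group lay at -2.06. Fjx1 stood at 0.18 and 0.25, then 3.17 and 3.09, then 2.85 and 3.03, and then -0.10 and 0.01. Both inhibited arrays of Fjx1 lay below both untreated ones. The natriuretic peptide Nppb rose by 4.17 and fell by 3.10, and Wnt6 rose by 3.33 and fell by 1.02, the smallest fall among the members.

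Receptors and surface proteins made up 18 members, of which 11 kept a remainder of 1 or more. Of these, 8 were G protein-coupled receptors, with falls between 1.28 and 2.72. The beta-1 adrenergic receptor Adrb1 stood at -2.68 and -3.70 untreated, 1.03 and 0.43 at 8 h, 0.83 and 0.26 at 10 h, and -2.06 and -2.28 after the inhibitor. Every inhibited array lay below every 4OHT array and above both untreated ones for this probe. A second Adrb1 probe rose by only 0.57 at 10 h and ended at a mean of -0.19 relative to untreated cells. The metabotropic glutamate receptor Grm6 differed in extent: it stood at -5.45 and -4.30 untreated, where neither array was well above background, 1.65 and 2.01 at 8 h, 2.01 and 2.12 at 10 h, and still 0.60 and 0.87 after the inhibitor. Its rise was at least 118-fold and its fall 2.52-fold. Gpr142 and the galanin receptor Galr1, also without a detected untreated level, rose by at least 11.2-fold and at least 6.92-fold.

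Plaur, the urokinase receptor, was among the brightest members and kept a large remainder. It stood at 2.29 and 1.99 untreated, 5.58 and 5.62 at 8 h, 5.95 and 6.04 at 10 h, and 4.39 and 4.50 after the inhibitor. All 3 treated groups lay above untreated cells without overlap. Fgfr4, a receptor of the family that PD173074 inhibits, stood at -1.57 and -1.82, then 2.66 and 2.26, then 3.21 and 2.97, and then 2.13 and 1.64. Its inhibited arrays lay below all 4OHT arrays and 3.58 above untreated cells. Among the other surface genes the junction proteins Esam and Cldn5 fell by 1.67 and 1.16, and the guidance receptor Robo4 by 1.32. The matrix proteases Mmp9 and Adamts1 fell by 1.14 and 1.66, and Mmp9, below background on both untreated arrays, had risen by at least 10.3-fold.

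The 19 developmental transcription regulators rose by a median of 3.09 and fell by a median of 1.59, and 11 of them kept a remainder of 1 or more. The homeobox factor Evx1, a gene of the primitive streak, stood at -2.42 and -1.96 untreated, 1.16 and 0.72 at 8 h, 1.04 and 0.95 at 10 h, and -1.32 and -1.69 after PD0325901. It was among the more fully reversed of them, with 78.6% of its rise lost. Cdx2, a homeobox factor of trophectoderm and posterior embryo, stood at -4.41 and -3.65 untreated, 2.07 and 2.60 at 8 h, 2.06 and 2.95 at 10 h, and 0.78 and 1.44 after the inhibitor. Its inhibited arrays lay under the 4OHT arrays, and the remainder was 5.14.

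Of the other homeobox members Msx1 fell by 2.27, the POU factors Pou3f1 and Pou4f2 by 1.73 and 1.43, Pdx1 by 1.68, Hoxd13 by 1.18 and Hopx by 1.12. Id1, an inhibitor of basic helix-loop-helix factors and a target of BMP signalling, stood at 2.75 and 3.06, then 5.56 and 5.32, then 6.11 and 5.88, and then 3.48 and 3.79. Each inhibited array of Id1 lay above both untreated arrays and below all 4OHT arrays. Sp5, a target of WNT signalling, rose by 3.99 and fell by 1.63. Sox4 ended 0.10 below its untreated mean after a rise of 1.49 and a fall of 1.59, while Twist1 kept 1.99. Pdx1 and Cdx2 are immediate neighbours among RefSeq protein-coding genes, as are Soga3 and 9330159F19Rik, which rose by 3.11 and 4.05 and fell by 1.27 and 1.69.

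Among 5 enzyme genes the retinoic acid hydroxylase Cyp26a1 had the second largest smaller fall of all members after Phlda1. It stood at -4.77 and -4.79 untreated with 1 of 2 arrays well above background, 0.83 and 0.81 at 8 h, 0.86 and 1.04 at 10 h, and -2.79 and -2.62 after the inhibitor. Aldh1a3, an enzyme that makes retinoic acid, stood at -4.30 and -5.31, also with 1 of 2 untreated arrays well above background, then 0.47 and 0.15, then 1.19 and 1.38, and then -0.04 on both inhibited arrays. The pair thus differed in the level left, 2.08 for Cyp26a1 and 4.76 for Aldh1a3. Sirt1, a protein deacetylase, rose by 1.17 and fell by 1.14. The 5 transporters fell by 1.34 to 2.26, with Slc35d3 showing the largest fall.

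A further 29 members were given no role here. They include the neuronal early gene Arc, at 2.51 and 2.26 untreated, 5.17 and 5.25 at 8 h, 5.60 and 5.76 at 10 h, and 3.73 and 3.62 after the inhibitor. Its inhibited arrays lay between the untreated and the 4OHT arrays. The keratin Krt23 was not well above background at -7.54 and -6.43 untreated, and stood at 0.00 and 0.44 at 8 h, 0.89 and 1.49 at 10 h, and -0.16 and 0.39 after the inhibitor. Its rise was at least 64.1-fold, which cannot be ranked against measured rises, and its fall 2.10-fold. Filip1l, with a CArG box, rose by 4.20 and fell by 2.65, and 1 of its 2 untreated arrays was well above background. The member left furthest below untreated cells, 2310030G06Rik, rose by 1.94 and fell by 2.42.

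The bounds of the rule divide neighbours with nearly the same values. On the smaller fall Wnt6 at -1.008, Nfkbie at -1.015 and Map3k8 at -1.036 were inside, and Slc4a7 at -0.998, Vwa1 at -0.995 and Rarg at -0.994 outside. On the smaller rise at 8 h Ceacam2, Sirt1 and Icosl were inside at 1.005, 1.015 and 1.068, and Axin2, Grhl3 and Nkx6-2 outside, from just under 1 down to 0.962. At 10 h Tor4a, Sirt1 and S1pr2 were inside at 1.02, 1.03 and 1.03, and Tcf15, Mirt1 and Rapgef3 outside at 0.963, 0.890 and 0.662. On the level after the inhibitor 2310030G06Rik at -0.48, Zfp36 at -0.44 and Trib1 at -0.39 were inside, and Dusp1 at -0.53, Zfp36l2 at -0.57 and Spry1 at -0.64 outside.

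The rise was met by 608 named genes, of which 144 (23.7%) also fell by 1 or more, and the bound at -0.5 set 28 of these aside. The 28 include several of the best known ERK targets. Egr1 stood at 0.83 and 1.42 untreated, 4.76 and 5.15 at 8 h, 5.16 and 5.56 at 10 h, and -0.29 and 0.23 after the inhibitor. The ERK phosphatase Dusp6 stood at 3.43 and 3.46, then 6.32 and 6.26, then 6.38 and 6.42, and then 0.43 and 0.65. Both went below every untreated array, by a mean of -1.16 for Egr1 and -2.90 for Dusp6.

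Spry4, Myc, Fos and Spry2 likewise ended at -4.26, -2.81, -1.26 and -1.08 relative to untreated cells. The ETS factors Etv4 and Etv5, often used as readouts of the pathway, were outside for other reasons. Etv4 stood at 4.29 and 4.10, then 6.0 and 5.98, then 6.12 and 6.09, and then 5.81 and 5.79, a fall of 0.31. Etv5 did not rise, at 6.50 and 6.67 untreated and 6.55 and 6.52 at 10 h. The remaining 464 induced genes did not fall by 1 or more in both replicate numbers. Gata3 among them rose, from -0.77 and 0.09 at 10 h to 0.61 and 0.63 after the inhibitor. The median change after the inhibitor over all 608 was -0.58.

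The gene lists compiled for the pathway place the members among their relatives, with calls made by limma (Benjamini-Hochberg adjusted p under 0.05 over all features). At 10 h against untreated cells 13.1% of features were called higher and 14.8% lower, and for PD0325901 against 10 h 2.87% were called lower and 3.24% higher. The lists hold named genes only. Of all 14489 named genes 2348 were higher and 2555 lower at 10 h, and 511 were lower and 602 higher after the inhibitor. Members enter these counts and were chosen on the same contrasts, so nothing is read from their part. Of 28 measured feedback phosphatases and adaptors of ERK 17 were higher and 5 lower at 10 h, and 14 fell and 2 rose after the inhibitor, with a median of -0.70 against -0.03 for all named genes. Its 6 members are Dusp2, Dusp4, Dusp5, Spred1, Ier3 and Phlda1. Of 12 AP-1 factors 7 were higher at 10 h, and 6 fell and 1 rose after the inhibitor. Fosl1, Jun, Junb and Maff are members, and 1 other was set aside by that bound. Of 5 EGR factors and corepressors 4 were higher and 3 fell, with Egr2 the only member and 1 other set aside by that bound.

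Among 46 other immediate early genes 22 were higher and 8 lower at 10 h, and 20 fell and 5 rose after the inhibitor, with 8 members, Arc, Trib1 and Plk3 among them. Of 42 factors of the primed epiblast, streak and lineages 19 were higher and 6 lower at 10 h, and 13 fell and 4 rose, with 8 members. Lists of this size with no member are near the 0.801% of members among all named genes. The 17 ETS factors held no member, with 5 higher and 4 lower at 10 h and 1 falling and 2 rising after the inhibitor. The 22 genes of naive pluripotency also held none, and of these 12 were lower and 5 higher at 10 h, while 7 rose and 3 fell after the inhibitor. Among 27 cell cycle and MYC programme genes 12 were higher and 3 lower at 10 h, and 0 were called in either direction after the inhibitor.

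The comparison of 10 h with 8 h of 4OHT is the one for which the rule set no bound, although it shares the 8 h and 10 h arrays with the rule. No member and no feature passed the limma test at an adjusted p under 0.05 (0.0% of 22686 features), with the smallest adjusted p at 0.268 over all features and 0.492 among members. At an unadjusted p under 0.05, 715 features were higher (3.15%) and 784 lower (3.46%). Among the members 23 were higher (19.8%) and 2 lower at that level, and the median difference was 0.12, against 0.01 for all named genes, with a median SE of 0.19. The rule asked for a high 10 h level in both the rise and the fall, so the choice of members itself favours 10 h above 8 h, and nothing is read from the member shares that follow or those just given. The 10 h level was the higher in both replicate numbers for 66 members, against 35.8% of named genes, and the lower in both for 24, against 33.1%. Both 10 h arrays lay above both 8 h arrays for 45 members, against 20.2% of named genes, and below both for 11, against 18.1%.

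Edn2 had the smallest p among the members, at 1.27 ± 0.18 (SE, n = 2 and 2, limma adjusted p = 0.492), and it was higher at 10 h in both replicate numbers. Sp5 was 0.50 ± 0.10 higher and Insyn2a 0.77 ± 0.17 higher, each at a limma adjusted p of 0.54. Pou4f2, Arc and Dusp5 lay 0.43, 0.47 and 0.46 higher, at limma adjusted p between 0.584 and 0.64. In the other direction Soga3 had the smallest p, at -0.34 ± 0.09 (limma adjusted p = 0.63), followed by Xbp1, Tor4a, Teddm3, Cldn5 and Fjx1 at -0.40 to -0.19. None of these differences passed the threshold. For Sox8 and Thbd, both dim, the change between the 2 times was near 0 in 1 replicate number or of opposite sign in the other.

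**Figure D4:**
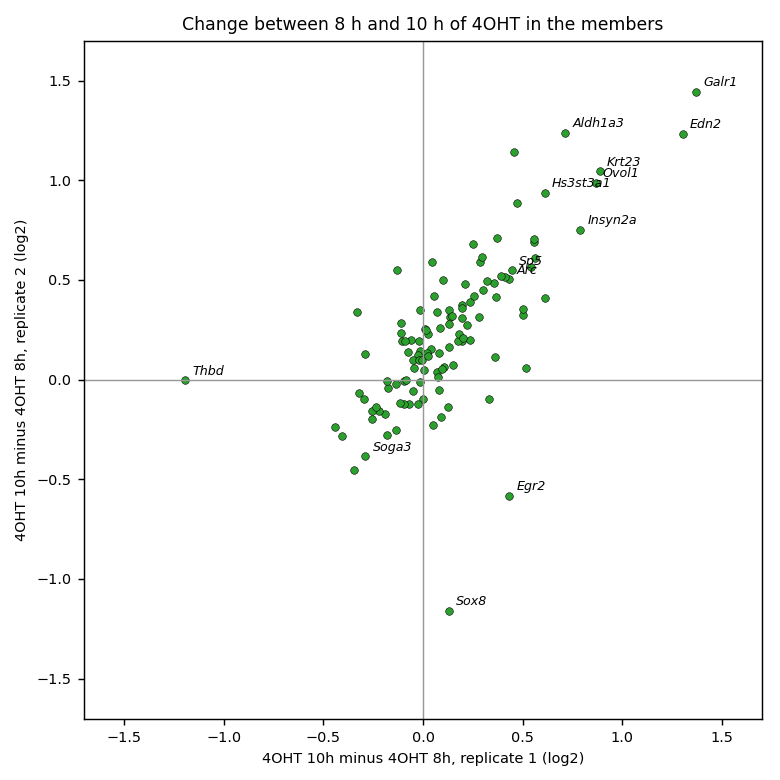
Each point is 1 of the 116 members, with the change from 8 h to 10 h of 4OHT in replicate 1 on the horizontal axis and in replicate 2 on the vertical axis, both in log2. More members lie at the upper right (66 higher in both) than at the lower left (24 lower in both), with Edn2 and Galr1 farthest out, and none passed the limma test.

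A second kept probe, which the rule did not use, was present for 18 members, 20 probes in all. Of these 19 moved the same way as the main probe in both replicate numbers, up at 8 h and 10 h and down after PD0325901, and 12 met every bound of the rule. The second probe of Trib1 rose by 2.12 at 10 h and fell by 2.56, and that of Gem rose by 3.74 and fell by 3.03. The probes disagreed for a few genes. The second probe of 4931440P22Rik was 0.25 below untreated at 10 h on average and did not fall in replicate 1, and that of Rgs3 rose by 0.23 and fell by 0.17. Those of Adrb1 and Cass4 fell by 0.76 and 1.07, against 2.72 and 2.71 for the main probe. Among 11462 kept probes without a gene name 56 also met the rule, and they are not counted as members.

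**Figure D5:**
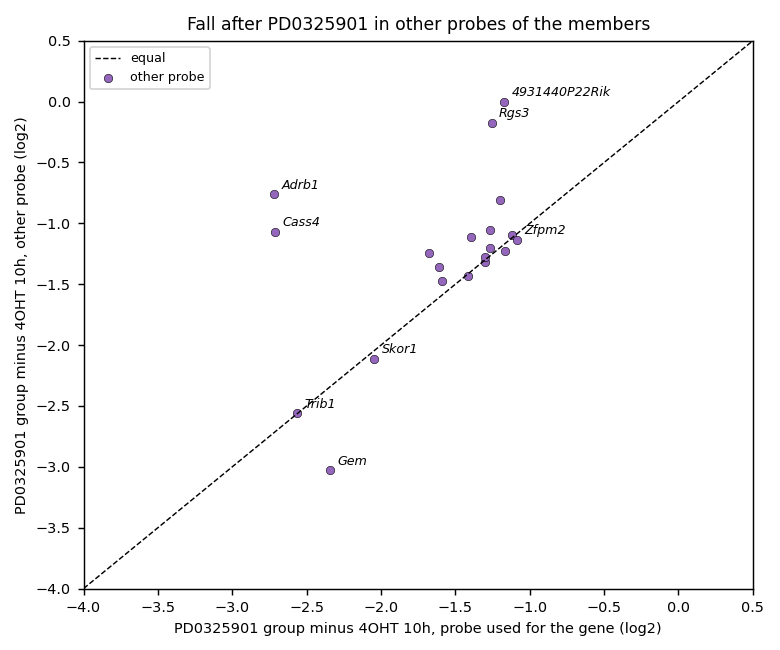
Each of the 20 points is a second probe of a member, with the mean change from 4OHT 10 h to the PD0325901 group for the probe used on the horizontal axis and for the second probe on the vertical axis, in log2. Most points lie near the dashed line of equal change, with 4931440P22Rik, Rgs3, Adrb1 and Cass4 well above it.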

How the data were processed

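RNA of 8 cultures was hybridised to single-colour Agilent arrays. Per the file headers the authors scanned them with Agilent Feature Extraction 11.0.1.1, whose deposited processed intensity is background-corrected, and the design carries build mm9. The label names Cy5 while the files hold the green channel. Intensities were taken to log2, and the 75th percentile over non-control spots was subtracted; outlier spots were left out, and the number of arrays limits the precision. Of 55681 probes 49.7% matched a gene symbol through their accession in RefSeq (GRCm38.p6). Probes well above background on both arrays of any group were kept (30329), and the probe with the highest mean stood for its gene. The 10 h against 8 h comparison used limma 3.58.1 in R 4.3.3 on all 8 arrays with 4 residual degrees of freedom. On simulated data with 22660 features this test recovered 64% of changes of 1 and 89% of changes of 2. The simulated noise was independent between arrays, unlike the real deviations, and 200 features were changed. These rates may therefore not hold for the real arrays. A probe below background on both arrays of a group gives a bound, from the mean over arrays of the higher of its signal and the lowest signal above background. The deposited value table, a linear signal, differed from the intensities by at most 0.497% and served as an alternative. Members, lists, roles and motifs were chosen with earlier results of these data known. Named genes are those with the largest falls and rises, the highest and lowest shares reversed, those nearest each bound, list members, the smallest p at 10 h against 8 h, and Dusp6, Spry2, Spry4, Etv4, Etv5, Egr1, Fos, Fosl1, Myc and Cdx2. Others illustrating a role were chosen after their values were seen.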

Additional observations from a re-analysis of the deposited data

How the results depend on the processing

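Normexp background correction with an offset of 50, which shrinks differences of dim probes, together with quantile normalization gave 69 members, 66 of them shared with the 116. Other settings gave 115 (quantile), 141 (median-centred), 116 (value table), 122 (no background requirement), 117 (mean of probes), 152 (mean of replicates), 169 and 81 (bounds of 0.8 and 1.2), 144 (no lower bound) and, from 1 replicate number, 146 to 169. In the 10 h against 8 h comparison 0 members were called under all 17 alternatives, and all 204 values of the 12 tested members kept their direction and stayed above the threshold. Features called there stayed at 0 in 9 settings and ran from 0 to 4 when 1 array was left out, with 4 without 4OHT 10h replicate 1, 2 without 4OHT 8h replicate 1 and 1 without 4OHT 8h replicate 2. The labels give replicate numbers and no pairing. Deviations of same-numbered arrays correlated at 0.287 to 0.356. With the replicate block 0 features were called at 10 h against 8 h, features lower after PD0325901 went from 652 to 1308 and higher from 736 to 1512. Calls after the inhibitor that moved by over 1.5 times under that block were those higher among ERK feedback genes (2 to 6), AP-1 factors (1 to 2), other immediate early genes (5 to 9), lineage factors (4 to 10) and cell cycle genes (0 to 4), and those lower among ETS factors (1 to 4), naive pluripotency genes (3 to 5) and cell cycle genes (0 to 1). Replicate 2 arrays had a higher lowest detectable signal, which limits dim members.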
